A study of Mus musculus with 8 samples.

Results

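The cytosolic ribosomal protein genes were compared between mouse aortic smooth muscle cells that had received a moR-21 mimetic and cells that had received a scrambled control. Members were all array probes whose gene symbol follows the pattern of a ribosomal protein name (Rpl or Rps with a number, and the stalk proteins Rplp), without the S6 kinases, whose symbols also begin with Rps6. This rule used names alone and no measured value. It took 79 of the 25697 probes, which belong to 61 of the 18138 gene symbols, with 31 probes for the small subunit and 48 for the large subunit.

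A moR (microRNA-offset RNA) is a small RNA cut from a microRNA precursor next to the mature microRNA, and the mimetic is a synthetic version of the one beside miR-21. The cells were primary cultures grown out of pieces of several mouse aortas with the adventitia removed. Both oligonucleotides were given by lipid transfection at 5 nM and RNA was taken at 48 h, in 3 samples per treatment, so that the controls also carried the transfection reagent and a foreign oligonucleotide. The design text names an Illumina MouseRef-8 array. Control 1 and moR-21 3 had repeat arrays (A and B), whose values were averaged, and the 8 arrays therefore cover 6 samples. Nothing in the labels says that samples of a treatment came from separate cultures or animals, so the p-values measure only the spread between these samples, which may be technical.

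A ribosome has a small subunit that reads the messenger RNA and a large subunit that joins amino acids, and each holds its own set of ribosomal proteins around ribosomal RNA. The mRNAs of these proteins are among the most abundant of a growing cell. They carry a stretch of pyrimidines at the very start of the transcript, the 5′ TOP motif, through which the mTORC1 kinase and the RNA-binding protein LARP1 control their translation. That control acts largely on translation and mRNA stability, and an expression array measures mRNA abundance only. The amount per cell cannot be told apart from the number of cells of a type in such bulk RNA.

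To show the start motif, 30 bases around the annotated transcript start were taken from the RefSeq promoter sequences of assembly GRCm38.p6 for the genes that the results turn on. Each line reads 5′ to 3′ on the strand of the gene, with 15 bases on either side of the start, and capitals mark a run made of a C followed by at least 4 further pyrimidines (C or T). Where a window holds more than 1 such run, the one whose first base lies nearest the start is marked.
Rps6, chr4:86857353-86857382, minus strand: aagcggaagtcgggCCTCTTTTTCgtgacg
Rps24, chr14:24490663-24490692, plus strand: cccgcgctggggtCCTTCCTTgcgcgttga
Rpl31, chr1:39367836-39367865, plus strand: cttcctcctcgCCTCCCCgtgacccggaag
Rpl7a, chr2:26910792-26910821, plus strand: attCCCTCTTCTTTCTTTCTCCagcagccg
Rps27l, chr9:66946071-66946100, plus strand: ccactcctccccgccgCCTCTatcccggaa
Rps3, chr7:99483695-99483724, minus strand: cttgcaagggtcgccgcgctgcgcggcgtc
Rpl23, chr11:97782425-97782454, minus strand: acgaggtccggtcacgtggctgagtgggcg
Rpl7l1, chr17:46782642-46782671, minus strand: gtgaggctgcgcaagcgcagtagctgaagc

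In these windows Rps6, Rps24, Rpl31, Rpl7a and Rps27l had such a run, and Rps3, Rpl23 and Rpl7l1 had none. For Rpl7a and Rps27l the start used lies downstream of the first base of the gene (chr2:26910685 and chr9:66944624). No match says only that these letters are not in this window at the annotated start. Promoter windows of 300 bases, 250 before and 50 after the start, were present for 48 of the member genes. A gene was counted if any of its windows matched. Read on the transcript strand, the start base was a C followed by at least 4 pyrimidines in 9 of these 48 genes (18.8%), also inside a longer run. That held for 3.08% of the 5611 array-tested genes with a window and 3.01% of all 27025 genes with a window. Any base within 5 of the start met that description, inside a longer run or not, in 25 (52.1%), against 24% of the tested genes and 21.2% of all genes.

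Searched on both strands of the whole window, the ETS core CCGGAAG stood in 41.7% of the member genes with a window, 20.6% of the tested genes and 9.93% of all genes. The YY1 core AAGATGG stood in 16.7%, 9.2% and 7.28%. The Sp1 core GGGCGG stood in 64.6%, 70.4% and 38.2%, and TATAAA in 12.5%, 8.86% and 15.7%. These shares describe letters in the sequence and were not measured on the arrays.

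The labelled cell type was checked against its markers before the results, because one field of the labels abbreviates the cells as aortic endothelial. Of 9 smooth muscle markers on the array, 5 were detected on all arrays, 2 on some, and Cnn1 and Myh11, late markers of the contractile state, on none. Of 10 endothelial markers, 8 were not detected on any array, among them Pecam1, Cdh5, Kdr and Tie1. The other 2, Vwf and Egfl7, were detected on all arrays and gave log2 fold changes of 0.058 and -0.095, not called. Of 9 macrophage markers 5 were not detected, among them Ptprc, Emr1 and Cd68. Summed deposited intensity of the endothelial markers lay between 10.56 and 10.65 on the log2 scale in the controls and between 10.55 and 10.61 with the mimetic. Of 5 mesothelial markers, Krt8, Krt18 and Msln were not detected, Upk3b fell by 1.24 and Krt19 gave -0.13, not called, and the sum lay between 10.74 and 11.0 in the controls and between 10.02 and 10.09 with the mimetic. Of 4 tested macrophage markers the lysozyme genes Lyz and Lyz2 were called higher, by 0.58 and 0.48, while Cd14 gave -0.27 and Csf1r -0.013, and the sum of the list lay between 11.45 and 11.7 in the controls and between 11.5 and 11.57 with the mimetic. The smooth muscle sum went from between 14.0 and 14.2 to between 14.46 and 14.56. Its members were mixed: Acta2 was called higher, by 0.40, while Des gave -0.38, Tpm1 0.36, Tagln 0.20 and Smtn -0.049, not called. The sum of 7 fibroblast markers, with Dpt not detected, went from between 14.35 and 14.54 to between 14.2 and 14.32. Of these, Lum and Col1a2 were called lower, by 0.56 and 0.47, and Thy1 was called higher, by 0.53. Dcn gave -0.22, Col1a1 -0.20 and Pdgfra -0.17, not called. The part of these shifts in the ribosomal protein results was not tested.

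The arrays were of like brightness. Median intensity lay between 102 and 109 and between 10285 and 10512 probes per array had a detection p-value under 0.01, and log2 signals correlated across probes at 0.9963 to 0.9978 within a treatment and at 0.9843 to 0.9869 between treatments. A probe was tested if it was detected on at least 1 array, which 65 of the 79 ribosomal protein probes were, in 53 genes. Of these 65, 62 were detected on all 8 arrays.

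The 14 probes not tested were detected on no array. Of these, 6 belong to genes with another tested probe, and the other 8 genes were Rpl6, Rpl14, Rpl17, Rplp2, Rps23, Rpl3l, Rpl39l and Rps4y2. Rpl3l and Rpl39l are paralogues known for expression in striated muscle and in testis. The proteins of Rpl6, Rpl14, Rpl17, Rplp2 and Rps23 are standard parts of every ribosome, so their probes had no signal above background for genes that every cell uses. The reason was not tested, and these genes are not analysed here. Rpl5, Rpl7, Rpl10, Rpl11, Rps18 and Rps27 are also not analysed here.

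Few ribosomal protein mRNAs differed between the treatments by the test used, 5 probes of 5 genes. Higher with the mimetic were Rpl7l1, Rpl7a and Rps3, and lower were 1 dim probe each of Rps24 and Rpl23. A probe was called if its fold change was over 1.3 (0.379 on the log2 scale) and its adjusted p was under 0.002, by limma with Benjamini-Hochberg adjustment over all 11651 tested probes. By that rule 3 of 65 tested ribosomal protein probes were higher, where 3.12% of all tested probes were, and 2 were lower, where 3.85% of all were. Together 7.69% of the members were called, beside 6.96% of all tested probes, a share near the background.

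Small shifts were spread over both directions. The median log2 fold change of the 65 probes was 0.014, with quartiles of -0.068 and 0.12, beside a median of 0.0048 for all tested probes. Of the 65, 36 had values above 0 and 29 below. The median size regardless of sign was 0.10 for the members and 0.091 for all. With the adjusted p under 0.05 and no fold limit, 12 probes were higher (17.9% of all tested probes were) and 8 were lower (16% of all were). All 3 values with the mimetic lay above all 3 control values for 13 probes, where 23.7% of all tested probes did so, and below them for 12, where 21.2% of all did so. For 53 of the 65 (81.5%) the 95% confidence interval of the fold change lay wholly within 1.3-fold either way, and for 84.7% of all tested probes.

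**Figure D1:**
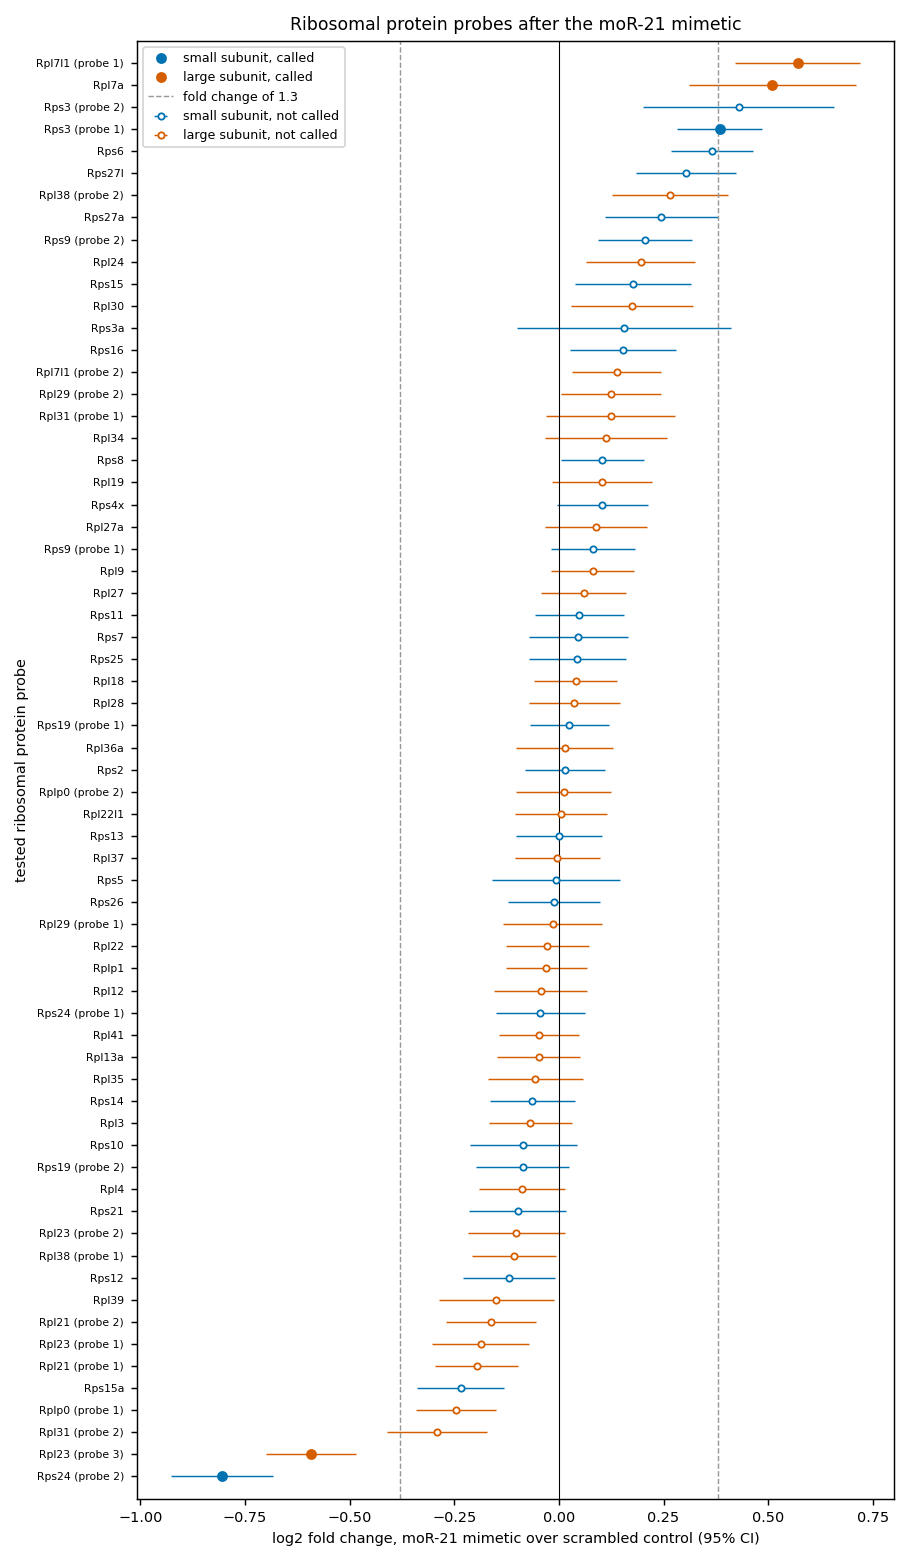
Log2 fold change of each of the 65 tested ribosomal protein probes (moR-21 mimetic over scrambled control, 3 samples each), with 95% confidence intervals from limma, in blue for the small and orange for the large subunit. Probes of a gene are numbered from its brightest, filled points mark the 5 called probes, and the dashed lines mark a fold change of 1.3; the values run from -0.81 for the dimmer Rps24 probe to 0.57 for Rpl7l1.

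By sample, the median deviation of the members from their mean over the 6 samples was -0.024, -0.023 and 0.018 in control samples 1, 2 and 3 and -0.024, 0.036 and 0.020 in moR-21 samples 1, 2 and 3, on the log2 scale. The 2 treatments overlapped in these values. The pair of arrays of control sample 1 differed by a median of 0.065 per member probe, and that of moR-21 sample 3 by 0.062. The median standard error of a member's fold change was 0.052, with a range of 0.044 to 0.12.

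Rpl7l1 encodes a paralogue of the large subunit protein Rpl7 that acts in ribosome assembly in the nucleolus. The gene lies at chr17:46773907-46782656 on GRCm38.p6. Its brighter probe (ILMN_1249606) had log2 signals of 8.79, 8.60 and 8.75 in the controls and 9.13, 9.41 and 9.31 with the mimetic. Every sample with the mimetic lay above every control. The rise was 0.57 ± 0.069 (SE, n = 3 and 3) on the log2 scale, or 1.48-fold, with an adjusted p of 2.40e-05. The dimmer probe of the gene, detected on 5 of the 8 arrays, gave 0.14 and was not called.

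Rpl7a encodes a large subunit protein on the outer surface of the ribosome. The gene lies at chr2:26910685-26913312. Its probe had log2 signals of 9.91, 10.14 and 10.43 in the controls and 10.61, 10.70 and 10.69 with the mimetic. The groups did not overlap, but the controls were spread over more of the scale (SD 0.26) than those of most members, whose median control SD was 0.062. The rise was 0.51 ± 0.093 (SE), or 1.42-fold, with an adjusted p of 7.01e-04. This call was lost under normexp background correction, under median scaling, with no detection filter and without any 1 of control 1, control 2 or the 3 moR-21 samples, as well as at a fold limit of 1.5. Over all 18 alternatives the value lay between 0.386 and 0.644.

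Rps3 encodes a small subunit protein at the mRNA entry channel that also has reported roles in DNA repair. The gene lies at chr7:99477896-99483709. Its brighter probe had log2 signals of 12.32, 12.24 and 12.29 in the controls and 12.61, 12.70 and 12.69 with the mimetic. The groups were far apart for their spread, yet the rise of 0.38 ± 0.047 (SE), or 1.305-fold, lay only just past the fold limit (adjusted p 2.68e-05). The call was lost under normexp, with array A alone, without control 2, moR-21 2 or moR-21 3, and at a fold limit of 1.5, with values from 0.354 to 0.421 over the alternatives. The dimmer Rps3 probe gave 0.43 ± 0.11 (SE) with an adjusted p of 0.0061, in the same direction but not called.

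Rps6, the small subunit protein that S6 kinase phosphorylates downstream of mTORC1, stood just under the fold limit. The gene lies at chr4:86854099-86857367. Its log2 signals were 12.42, 12.47 and 12.50 in the controls and 12.81, 12.87 and 12.81 with the mimetic. The groups did not overlap and were narrow. The difference of 0.37 ± 0.046 (SE), or 1.29-fold, had an adjusted p of 3.16e-05, and it crossed the limit under median scaling, under cyclic loess and without control 3.

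Rps27l, a paralogue of Rps27 and a known p53 target, had the next value, 0.30 ± 0.055 (SE; adjusted p 6.91e-04, 1.23-fold, not called). Its log2 signals were 12.41, 12.43 and 12.35 in the controls and 12.60, 12.81 and 12.69 with the mimetic, again without overlap. Rps27a, made as a fusion of ubiquitin and a ribosomal protein, gave 0.24 and was not called either.

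The largest fall among all member probes was that of the dimmer Rps24 probe (ILMN_2625060). Rps24 is a small subunit protein needed to process the precursor of 18S ribosomal RNA, and its mRNA is spliced in alternative forms at the 3′ end. The gene lies at chr14:24490678-24496960. This probe, which the array annotation assigns to transcript variant 2, had log2 signals of 9.34, 9.46 and 9.35 in the controls and 8.66, 8.47 and 8.60 with the mimetic. The groups lay far apart. The fall was -0.81 ± 0.056 (SE) on the log2 scale, with an adjusted p of 1.21e-07, and the call held in all 18 alternatives, from -0.967 to -0.753.

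The brighter Rps24 probe (ILMN_3126986), annotated to transcript variant 1, had log2 signals of 13.61, 13.73 and 13.63 in the controls and 13.58, 13.66 and 13.60 with the mimetic. These groups overlapped, and the difference was -0.044 ± 0.050 (SE), which became 0.031 under median scaling. The 2 probes of the gene thus gave different differences between treatments, by -0.76 (dimmer minus brighter, adjusted p 3.89e-07).

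This difference between probes of a gene was tested across all 2924 such pairs on the array, a test chosen after the values had been seen. Of all pairs 3.86% were called, and 4 of the 12 ribosomal protein pairs, in 11 genes, were called (Rps24, Rpl23, Rpl31 and Rpl7l1). In 5 of the 12 pairs (41.7%) the probes had differences of opposite sign, beside 24.7% of all 2924 pairs, and these 5 include Rplp0, whose dimmer probe was detected on 1 array.

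Rpl23, a large subunit protein that can also bind Mdm2, the ubiquitin ligase of p53, was measured by 3 tested probes. The gene lies at chr11:97777526-97782439. The dimmest tested probe (ILMN_1238227) had log2 signals of 9.59, 9.68 and 9.63 in the controls and 8.97, 9.07 and 9.09 with the mimetic. It fell by 0.59 ± 0.050 (SE), with an adjusted p of 7.63e-07, and the call held in all 18 alternatives, from -0.68 to -0.554.

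The brightest Rpl23 probe (ILMN_2946482) had 13.55, 13.56 and 13.40 in the controls and 13.35, 13.35 and 13.25 with the mimetic, a difference of -0.19 ± 0.054 (SE; adjusted p 0.015, not called). The other bright probe gave -0.10. So all 3 probes had values below 0, and the dimmest differed from the brightest by -0.41 (adjusted p 6.78e-04).

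Rpl31, a large subunit protein near the tunnel exit, showed probes of opposite sign. Its brighter probe had log2 signals of 12.64, 12.48 and 12.78 in the controls and 12.64, 12.84 and 12.78 with the mimetic, which overlapped, for a difference of 0.12 ± 0.072 (SE). Its dimmer probe had 10.56, 10.60 and 10.72 in the controls and 10.36, 10.25 and 10.39 with the mimetic, without overlap, for -0.29 ± 0.055 (SE; adjusted p 9.89e-04, not called for its size). The difference between the probes was -0.41 (adjusted p 0.0011).

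Rpl38, a large subunit protein known for its part in the translation of Hox mRNAs, was the reverse, with -0.11 at its brighter and 0.26 at its dimmer probe. Their difference of 0.37 (adjusted p 7.53e-04) fell just short of the fold limit. For Rpl7l1 the dimmer probe lay -0.43 from the brighter (adjusted p 8.59e-04), and it was close to background. Rpl21, in contrast, gave -0.20 and -0.16 at its 2 probes, and Rps3 gave 0.38 and 0.43.

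**Figure D2:**
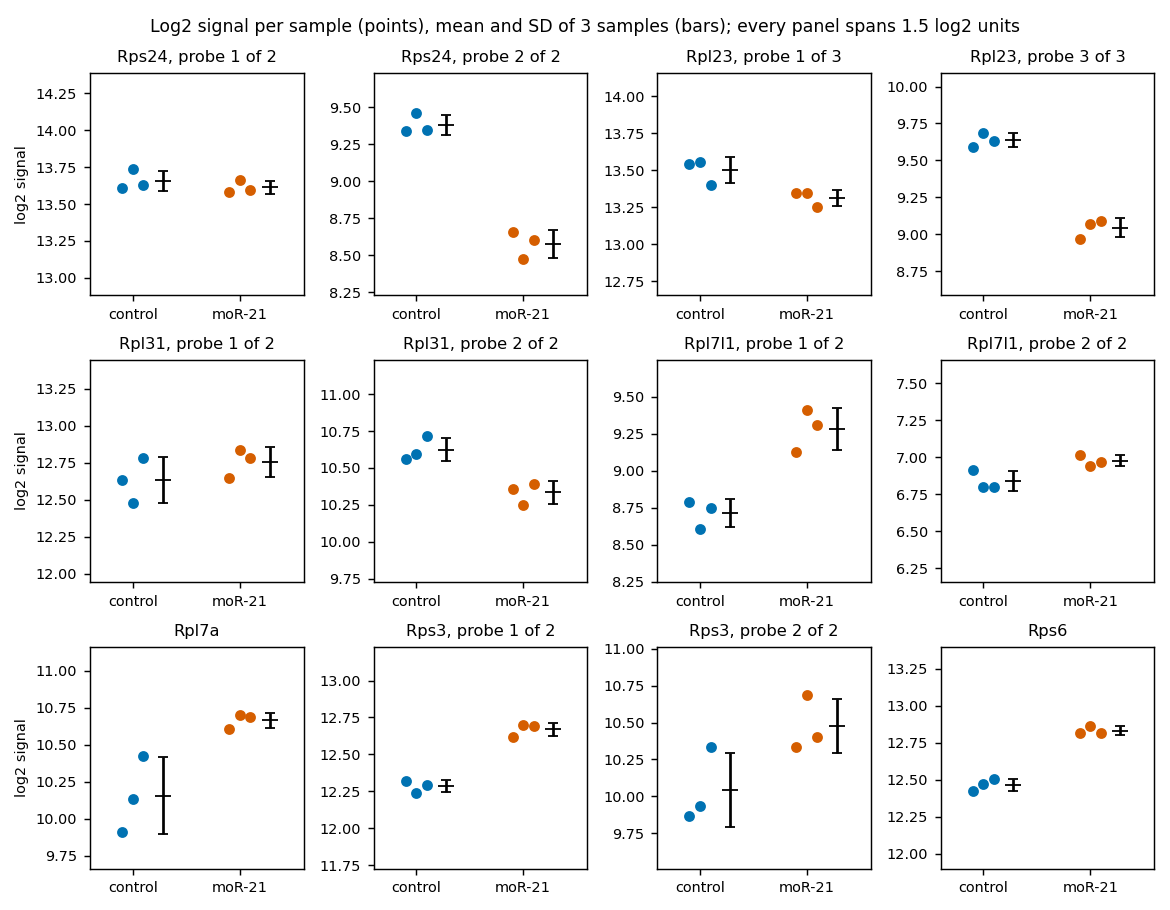
Log2 signal of 12 probes of 7 ribosomal protein genes in the 3 control (blue) and 3 moR-21 (orange) samples, with the mean and SD of each group as bars; each panel spans 1.5 log2 units around its own mean, and probe 1 is the brightest of its gene. The brighter Rps24 probe overlaps between treatments while the dimmer one goes from 9.34 to 9.46 down to 8.47 to 8.66.

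Read at the brightest probe of each gene, 30 of the 53 tested genes had values above 0 and 23 below, 3 were called higher, where 3.41% of all 8727 tested genes were, and 0 lower, where 4.38% of all were. At an unadjusted limma p under 0.05, 11 of the 53 genes were higher and 7 lower, where 23.4% and 21.1% of all tested genes were. The 5 lowest genes on this reading were Rplp0, Rps15a, Rpl21, Rpl23 and Rpl39.

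Rplp0 is the base of the acidic stalk to which elongation factors bind. Its probe had log2 signals of 9.46, 9.44 and 9.41 in the controls and 9.21, 9.16 and 9.20 with the mimetic. The groups did not overlap, and the difference was -0.25 ± 0.044 (SE; adjusted p 6.58e-04, not called for its size). Its second tested probe was detected on 1 array and gave 0.011. The stalk protein Rplp1 gave -0.030, with signals between 14.04 and 14.13 in all 6 samples.

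Rps15a, a small subunit protein, had log2 signals of 7.42, 7.32 and 7.44 in the controls and 7.20, 7.14 and 7.13 with the mimetic. Its difference of -0.23 ± 0.048 (SE; adjusted p 0.0018, not called) became -0.506 under normexp, still not called at an adjusted p of 0.0027. Rpl39, a short protein inside the peptide tunnel, gave -0.15 with overlapping groups.

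Among genes with a paralogue, Rpl22 gave -0.028 and Rpl22l1 0.0052, the latter detected on 2 arrays. Rpl3, which forms part of the peptidyl transferase site, gave -0.068. Rpl36a gave 0.014 and Rps4x, encoded on the X chromosome, 0.10. None of these was called, and the sign of Rpl22, Rpl22l1, Rpl3 and Rpl36a turned under at least 1 alternative. Rps19, the gene best known from Diamond-Blackfan anaemia, gave 0.025 at its brighter and -0.086 at its dimmer probe. Rpl13a, often used as a reference gene in qPCR, gave -0.049.

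Rps3a had the widest interval of the members, 0.16 with a 95% confidence interval of -0.10 to 0.41. Its log2 signals were 8.62, 8.54 and 8.69 in the controls and 8.38, 8.90 and 9.04 with the mimetic, so moR-21 sample 1 lay below the controls and the other two above them. The arrays A and B of control sample 1 differed most at this gene among the members, by 0.439.

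The small subunit had a median log2 fold change of 0.045 over 28 tested probes, of which 18 (64.3%) were above 0. Of the 28, 1 was called higher and 1 lower (7.14% together). The large subunit had -0.0041 over 37 probes, of which 18 (48.6%) were above 0. Of the 37, 2 were called higher and 1 lower (8.11% together). Of all tested probes 51.7% were above 0 and 6.96% were called. The difference between the subunits was not tested.

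Calls stood at probes of low and middle signal. The 16 member probes with a mean log2 signal above 13.41, the upper quartile of the members, ran from -0.119 to 0.103 and 0 were called, with 2 at an unadjusted limma p under 0.05. Each of their confidence intervals lay within 1.3-fold. These values hold under quantile normalization, which sets signals by rank on each array. They also lie at the top of the scale, where the highest mean log2 signal of all tested probes was 14.12. Rps2 had that mean, and the same value, 14.13, in controls 1 and 3 and in moR-21 1 and 2. Whether a ceiling of the signal narrowed the changes of these probes was not tested, so the values do not show that their mRNAs were unchanged. Under median scaling Rps4x went from 0.103 to 0.194 and Rplp1 from -0.030 to -0.053. All 39 tested probes above 13.41 included these 16, and 2.56% of the 39 were called. Between the quartiles (10.04 to 13.41) 6.06% of 33 member probes and 13.1% of all 1233 tested probes were called. Below 10.04, 18.8% of 16 member probes and 6.25% of all were called. Whether signal bears on the size of the changes was not tested.

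**Figure D3:**
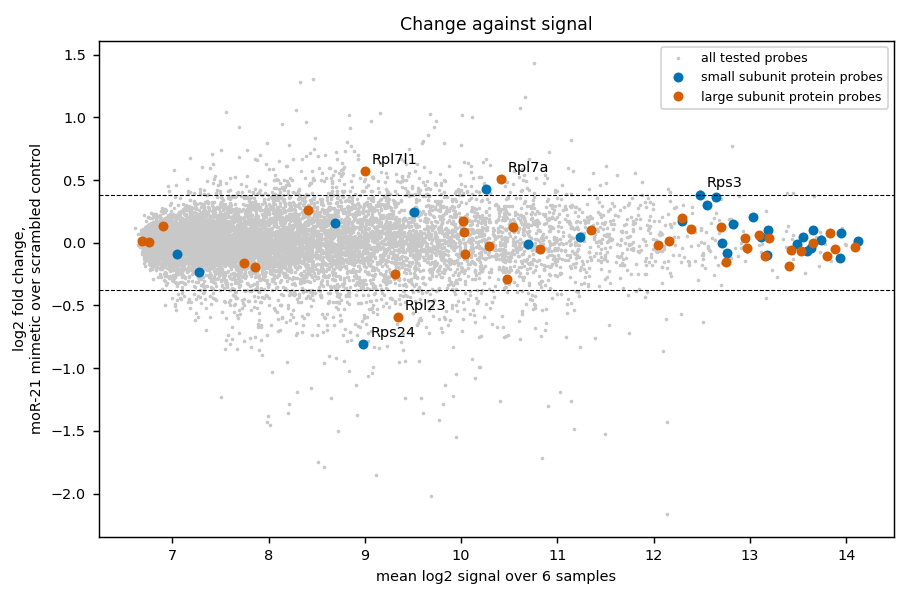
Log2 fold change (moR-21 mimetic over scrambled control) against the mean log2 signal over the 6 samples, for all 11651 tested probes in grey and the ribosomal protein probes in blue (small subunit) and orange (large subunit), with dashed lines at a fold change of 1.3. The 5 called member probes are named, and the 16 members above 13.41 lie between -0.119 and 0.103.

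Members with and without the start motif had overlapping ranges of change. The 22 tested genes with such a C within 5 bases of the start had a median log2 fold change of 0.0097, with a range of -0.235 to 0.51. The 20 tested genes with a window and no such C had a median of 0.035, with a range of -0.246 to 0.57. Of the 5 genes with a called probe, Rpl7a and Rps24 have a run in the windows shown, while Rps3, Rpl7l1 and Rpl23 have none.

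Of 3 ribosomal proteins with other names, 0 were called by limma, beside 3.41% of all genes higher and 4.38% lower. At an unadjusted limma p under 0.05, 1 was higher and 0 lower, beside 23.4% and 21.1% of all genes. Rpl36al gave 0.13, Gnb2l1 (the scaffold protein RACK1 on the small subunit) -0.064, and Rpsa 0.017.

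Of 15 tested genes for translation elongation and other mRNAs of the TOP class, 1 was called higher and 1 lower (6.67% each, beside 3.41% and 4.38% of all genes), with a median log2 fold change of 0.044. All 8727 tested genes had a median of 0.0056 at their brightest probe. Pabpc1, the poly(A)-binding protein, had log2 signals of 10.21, 10.55 and 10.60 in the controls and 9.80, 9.64 and 10.02 with the mimetic, and fell by 0.63 ± 0.099 (SE; adjusted p 2.12e-04). Vim, the intermediate filament vimentin, rose by 0.43 ± 0.049 (SE; adjusted p 1.41e-05), from 11.88, 11.96 and 11.96 to 12.43, 12.36 and 12.31. Eif3k, a subunit of an initiation factor, gave -0.34 and was not called.

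Genes of ribosomal RNA processing and ribosome assembly held calls in both directions, 2 higher and 2 lower of 33 tested (6.06% each, beside 3.41% and 4.38% of all genes), with a median of 0.031. Pes1, of the PeBoW complex that processes the large subunit's RNA, fell by 0.76 ± 0.046 (SE; adjusted p 3.26e-08), from 8.15, 8.18 and 8.23 to 7.44, 7.39 and 7.46. Lsg1, a GTPase that releases an export adaptor from the large subunit in the cytoplasm, fell by 0.51. Ncl, the abundant nucleolar protein nucleolin, rose by 0.47, and Nola3, a small protein of the pseudouridine-forming H/ACA particles, rose by 0.53. All 4, picked by their calls, separated the treatments without overlap. Of all tested probes 23.7% did so upward and 21.2% downward.

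Of 10 tested genes for RNA polymerase I and its factors, 0 were called, with 3 higher and 2 lower at an unadjusted limma p under 0.05, beside 23.4% and 21.1% of all genes. Polr1a, its largest subunit, gave -0.37 ± 0.056 (SE; adjusted p 1.54e-04), just short of the fold limit. Polr1c gave -0.37 and Cd3eap 0.24.

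Of 17 tested genes of mTORC1, the S6 kinases and the regulators of TOP mRNAs, 0 were called, with 3 higher and 5 lower at an unadjusted limma p under 0.05, beside 23.4% and 21.1% of all genes, and the median was -0.052. Tsc2, part of the complex that restrains Rheb, gave -0.32, and Rheb, the activator of mTORC1, gave 0.28. Gbl, the mTOR partner also named Mlst8, gave -0.23.

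The proteins of the mitochondrial ribosome are encoded by separate nuclear genes. Of 66 tested, 3 were called higher and 2 lower (4.55% and 3.03%, beside 3.41% and 4.38% of all genes, shares near the background), with a median of 0.020. Mrps12 had log2 signals of 9.51, 9.63 and 9.51 in the controls and 10.03 in each sample with the mimetic, a rise of 0.48 (adjusted p 3.87e-06). Mrps33 rose by 0.46 and Mrpl24 by 0.41, while Mrpl30 fell by 0.43 and Mrpl38 fell by 0.39. By probe, 6.82% of 88 mitochondrial and 7.69% of 65 cytosolic ribosomal protein probes were called. The difference between the cytosolic and mitochondrial sets was not tested.

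The reference genes that served qPCR in the study differed from each other. In its figure legends, B2m is the control for target mRNAs after the mimetic. Gapdh is the control for a qPCR in human kidney cells that had only their own moR-21. Gapdh, the glycolytic enzyme, rose by 0.41 ± 0.044 (SE; adjusted p 8.36e-06), from 11.94, 11.98 and 11.98 to 12.36, 12.38 and 12.37. B2m gave 0.094 with overlapping groups and was not called.

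**Figure D4:**
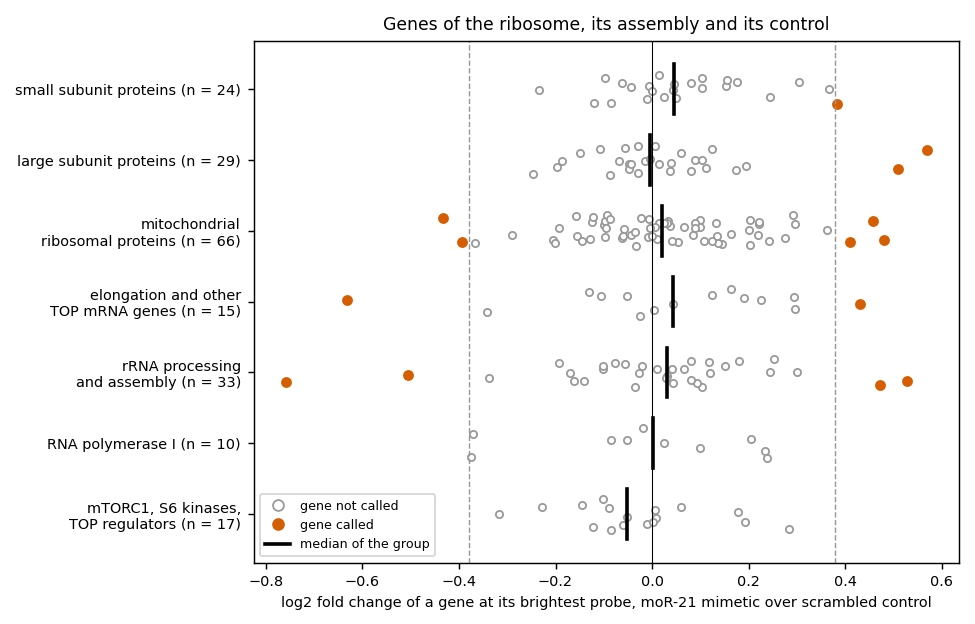
Log2 fold change of each tested gene at its brightest probe (moR-21 mimetic over scrambled control) for the ribosomal proteins by subunit and for the lists of related genes, with black bars at each group's median and filled points for called genes. The dashed lines mark a fold change of 1.3, and the medians lie between -0.052 for the mTORC1 list and 0.045 or less for all other groups.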

How the data were processed

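Microarray intensities were those deposited by the authors as non-normalized values, one per probe and array, each with a deposited detection p-value. No background correction is stated, and the submitters' processing notes name lumi. The labels and the study's methods differ in the array designs they name, and the table has 25697 probes. All columns matched a sample by name. Intensities of the 8 arrays were quantile normalized and log2 transformed, repeat arrays were averaged, and limma 3.58.1 (lmFit, eBayes; R 4.3.3) compared the treatments over the 11651 probes with detection p under 0.01 on at least 1 array, with Benjamini-Hochberg adjustment. Calls needed an adjusted p below 0.002 together with more than 1.3-fold change, the limits the study used. A gene was read at its brightest tested probe, and dimmer probes are given where sign or call differed.

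Named were genes with a called probe, the 5 largest rises and 5 largest falls, paralogue pairs, stalk and reference genes, and the called or 3 largest genes of related lists. Members, lists and rules were chosen with earlier results of these data known. The comparison of probes within a gene, the start windows, and Rps3a, Rps27a, Rpl31 and Rpl38 were chosen with their values in view. Of 61 member symbols, 59 were matched to RefSeq GRCm38.p6. The array table gives no coordinates. Alternatives were normexp (offset 16), cyclic loess, median scaling, detection on all arrays or no filter, array A or B alone, duplicateCorrelation, eBayes with trend and robust, the replicate block, each sample left out, and other thresholds. The scripts were tested on simulated data. The number of arrays limits the precision. Python 3.11.15 with pandas 2.3.3, numpy 2.4.6 and matplotlib 3.10.9 read sequences and drew plots.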

Additional observations from a re-analysis of the deposited data

How the results depend on the processing

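The 2 ribosomal protein probes called lower were also 2 in number under each alternative run. Of all tested probes 448 were lower in the main fit and 174 to 510 under the alternatives. The 3 called higher became 1 under normexp background correction and 0 at a fold change over 1.5, where all tested probes went from 363 to 418 and 86. With single samples left out the members ranged from 1 to 5, beside 344 to 388 of all tested probes. There was 1 without control 2, moR-21 2 or moR-21 3, and there were 5 without control 3. The median log2 fold change of the members, 0.014, moved to 0.051 under median scaling, under which all tested probes had a median of 5.46e-05, and was -0.0043 with array A alone. Leaving out single samples gave 0.0034 to 0.028. Over the 21 named values, 377 alternative values were computed, of which 347 kept direction and call, 16 lost the call, 3 gained it and 11 changed sign. Each value that changed sign was small: Rpl22 became 0.0075 with array B alone, Rpl3 0.0050 and the brighter Rps24 probe 0.031 under median scaling, and Rpl22l1 -0.0043 and Rpl36a -0.053 with array A alone. With single samples left out, Rpl22l1 ranged from -0.0217 to 0.0476 and Rpl36a from -0.0185 to 0.0638. The cause was not tested. Same-numbered samples of the treatments correlated at 0.187, 0.044 and 0.06 in their deviations, and differently numbered ones at -0.129 to 0.069. The main fit did not pair the samples, and whether the numbers mark pairs was not tested. With the replicate block 4 member probes were called higher and 2 lower, beside 365 and 450 of all tested probes. The median of the members was then 0.014. Controls 1 and 2 correlated best with the moR-21 sample of the same number, and control 3 with moR-21 2 (0.069, beside 0.06 with moR-21 3). With 3 samples a group, differences under the median standard error of 0.052 could not be resolved, and 14 member probes gave no signal above background.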
